A study of Mus musculus with 34 samples.

Results

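The mesoderm was compared with the primitive streak in heterozygous Evx1as embryos. Members were chosen as mesoderm and streak sections of the same layer, labelled Evx1as+/-, for layers 7, 9 and 11. Sections whose title and cell type label name different regions were left out. This gave 6 of the 34 samples of the series, 3 streak and 3 mesoderm sections in 3 pairs. All 6 are C57/B6 embryo tissue of embryonic day 7, cut by laser from cryosections and amplified by Geo-seq, a protocol for very small captured regions. Every embryo behind them is heterozygous for Evx1as, a long non-coding RNA transcribed next to the homeobox gene Evx1, and no wild-type section enters. How the Evx1as allele was made is not given for the embryos in the sources used here. The 8 sections used beside them are streak and mesoderm of Evx1as-/- embryos of the same strain and day, from layers 5, 7, 9 and 11. The labels do not say in which direction layers are numbered, by what criterion a region was outlined, or which sections share an embryo. The 3 pairs may therefore be 3 levels of 1 embryo, and p-values over sections are then too small as statements about embryos.

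The primitive streak is the posterior midline of the gastrulating epiblast, where epithelial cells lose E-cadherin, pass inward and leave as migratory mesoderm. WNT3 and NODAL signals induce it, FGF signals drive the exit of cells, and the transcription factors T (Brachyury), EOMES and MIXL1 mark it. Cells that have left lower these genes and take up programs of paraxial, lateral, cardiac or extraembryonic mesoderm.

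Levels are FPKM, fragments scaled to transcript length and to the mapped fragments of the library, in a table of 46785 genes for each section. The intervals deposited with the values imply a depth of 472460 to 1122147 fragments in the streak sections and 298905 to 583478 in the mesoderm sections, so low values rest on few fragments. Between 6806 and 9288 genes reached 1 FPKM in a streak section and between 7025 and 8057 in a mesoderm section. The non-coding RNA Yam1 took 33.1% of all FPKM in the mesoderm section of layer 7 and 1.07% to 15.6% in the other 5. Mitochondrially encoded genes took 3.38% to 5.53%. Xist was listed at 1.06 to 12.2 FPKM and the Y-linked genes Ddx3y, Eif2s3y, Kdm5d and Uty at 0 in all 6 sections.

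Marker genes set the streak sections apart more clearly than the mesoderm sections. The 6 streak markers T, Mixl1, Fgf8, Wnt3a, Evx1 and Nkx1-2 summed to 363, 445 and 341 FPKM in the streak sections of layers 7, 9 and 11 and to 10.2, 35.4 and 15.6 in the mesoderm sections. The 2 regions did not overlap in this sum, most of which came from T and Mixl1, while Fgf8 alone overlapped. For the sum, the exact sign-flip permutation test over the 3 pairs (two-sided) gave p = 0.25, the smallest value 3 pairs allow. The 6 nascent mesoderm markers in the tables, Mesp1, Tbx6, Msgn1, Pdgfra, Hand1 and Snai1, summed to 36.2, 91.3 and 13.9 FPKM in streak and to 35.7, 108 and 32.1 in mesoderm. These sums overlap between the regions, and the paraxial mesoderm factor Msgn1 was listed at 0 in all 6 sections. The name mesoderm is the submitters' label, and this summed list does not bear on it either way. Low streak markers alone do not identify mesoderm, since the heterozygous anterior epiblast section was low in T and Mixl1 too. A few mesoderm genes described below were higher in the mesoderm sections, none of them called in the 6 sections.

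Markers of other cell types were given by their sums. The 10 visceral endoderm markers summed to 1.59, 16.2 and 24.0 FPKM in streak and 1.87, 9.54 and 5.42 in mesoderm, with Cubn below 0.5 FPKM in every section. Apoe, which stands on the longer visceral endoderm list and is made by other tissues too, was at 19.7 to 125.4 FPKM in streak and 47.5 to 120.0 in mesoderm. The 5 anterior neuroectoderm markers were each below 0.5 FPKM in all 6 sections. Irx3, on the longer neuroectoderm list, was at 0, 0.652 and 0 FPKM in streak and 2.84, 2.02 and 1.44 in mesoderm. The 7 definitive endoderm and node markers summed to 1.06, 3.11 and 0.426 FPKM in streak and 14.4, 6.34 and 1.35 in mesoderm, with Shh and Chrd below 0.5 throughout. The part of these cells in the differences below was not tested.

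Across 8672 genes whose mean over the 6 sections reached 1 FPKM, 20 were higher in streak than in mesoderm (0.231%) and 0 were higher in mesoderm, by limma with layer as a block and a Benjamini-Hochberg (BH) adjusted p under 0.05. Without the layer block 5 of the 20 stayed past the threshold (0.0577%), of which T, Cxx1c, Cdkn1a and Cdh1 are named, and 0 were called toward mesoderm. The other 8 named genes had adjusted p-values of 0.0531 to 0.0928 without it. Differences are mesoderm minus streak on the log2(FPKM + 1) scale, which understates changes of low genes. At an unadjusted p under 0.05, 974 genes (11.2%) were higher in streak and 123 (1.42%) in mesoderm. The median difference over all genes was -0.33, and median-ratio scaling brought it to -0.01. After scaling, 5 genes were called higher in streak (0.0577%) and 0 higher in mesoderm. Without layer 7, 9 or 11, 0 genes were called in either direction each time. With the spread pooled with the 4 homozygous pairs, a fit whose filter and spread come from 14 sections while each heterozygous difference still rests on 3 pairs, 261 genes of 9146 (2.85%) were called higher in streak and 20 (0.219%) higher in mesoderm. All 20 genes called in the 6 sections alone are past the threshold in that fit too. Among 6738 genes with a mean of at least 10 implied fragments, an alternative chosen after seeing the data and called the fragment filter below, 47 (0.698%) were called higher in streak and 2 (0.0297%) higher in mesoderm. In each layer the streak section held more implied fragments than the mesoderm section, and the part of depth in these counts was not tested. In these bulk sections, fewer cells of a type and less RNA per cell cannot be told apart.

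Of the 20 genes, 12 are named and 8 are predicted genes or pseudogenes. The named genes are the streak factors T, Mixl1 and Nkx1-2, the adhesion gene Cdh1, the secreted proteins Fst and Apln, the cell cycle inhibitor Cdkn1a, and Cxx1c, Tceal8, Bex4, Syngr2 and Slc24a5.

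**Figure D1:**
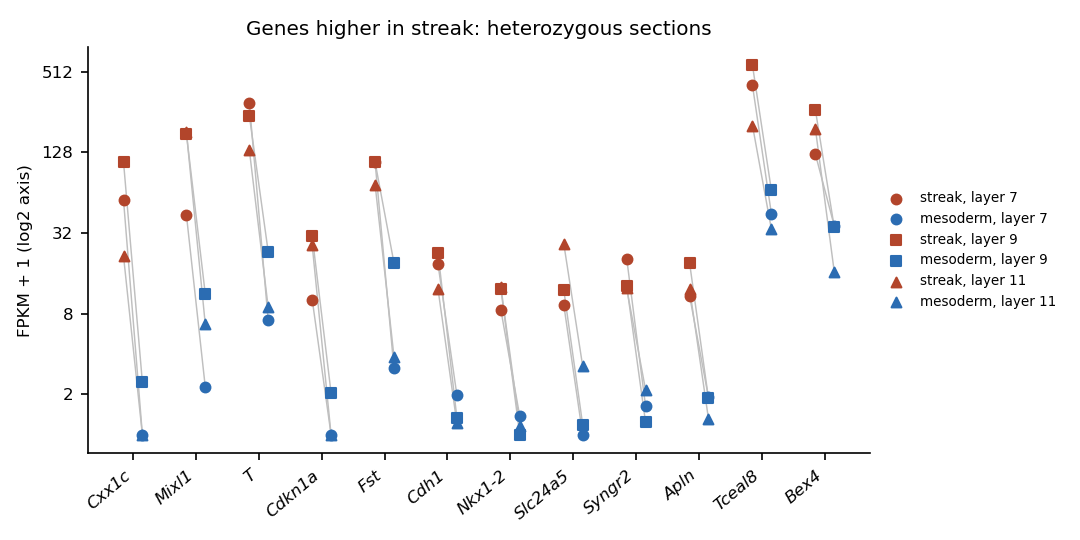
FPKM + 1 on a log2 axis for the 12 named genes called higher in streak, with 1 point per section: red for streak, blue for mesoderm, circles for layer 7, squares for layer 9, triangles for layer 11. Grey lines join the sections of a layer. In each of the 12 genes all 3 streak sections lie above all 3 mesoderm sections.

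T, the T-box factor that defines the streak, lies on chromosome 17 at 8434423 to 8442496 in mm10 coordinates. It was listed at 297, 240 and 133 FPKM in the streak sections of layers 7, 9 and 11 and at 6.17, 22.2 and 7.93 in the mesoderm sections. Every streak section was above every mesoderm section, and the mesoderm of layer 9 was the highest of its region. The difference was -4.22 ± 0.43 (SE, 3 pairs; limma BH-adjusted p = 0.00567). The mesoderm values rest on about 30, 144 and 60.2 implied fragments, so T was low there and not absent.

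Mixl1, a homeobox gene induced by NODAL at the streak (chromosome 1, 180693043 to 180697034), was at 42.7, 175 and 180 FPKM in streak and at 1.27, 10.2 and 5.65 in mesoderm. Layer 7 was lowest in both regions, and the regions did not overlap. The difference was -4.34 ± 0.38 (limma BH-adjusted p = 0.00332). T and Mixl1 differed in their order along the layers: T was highest in the streak of layer 7 and Mixl1 lowest there, which with 1 section per layer has no replicate.

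Nkx1-2, a homeobox gene of the streak and its posterior progenitors (chromosome 7, 132594878 to 132599637), was at 7.51, 11.2 and 11.7 FPKM in streak and at 0.370, 0 and 0.151 in mesoderm. The difference was -3.23 ± 0.51 (limma BH-adjusted p = 0.0494). Evx1, the homeobox neighbour of Evx1as, was at 0.915, 6.85 and 7.05 FPKM in streak and at 0.565, 0.744 and 0.780 in mesoderm. The streak of layer 7 lay close to the mesoderm sections, and Evx1 was not past the threshold (difference -1.55 ± 0.59, limma BH-adjusted p = 0.348). Evx1as itself, listed under the symbol 5730457N03Rik, was at 1.71, 0.287 and 0.640 FPKM in streak and 0.557, 0.838 and 0 in mesoderm. It did not pass the filter and overlaps Evx1 on the opposite strand, and whether strand was used in counting is not given in the sources used here.

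Across the primitive streak list, 18 of 21 genes passed the filter and 3 were called, all higher in streak, beside 0.231% of all genes. Of the 18, 12 were higher in streak in 3 of 3 pairs, beside 27.2% of all genes tested, and 10 did not overlap between the regions with streak higher, beside 10.0% of all genes. The median difference was -1.85, beside -0.33 over all genes. Not every member followed. Foxa2, a factor of the anterior streak and endoderm, was at 0.394, 0.524 and 0.265 FPKM in streak and 4.46, 1.83 and 0.373 in mesoderm. Lhx1, also of the anterior streak, was at 2.15, 2.30 and 1.63 in streak and 6.22, 4.06 and 1.46 in mesoderm. Cyp26a1, which degrades retinoic acid, was at 5.48, 31.5 and 0.788 in streak and 9.18, 9.06 and 2.66 in mesoderm, a difference of -0.00 ± 0.59. None of these 3 was past the threshold.

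**Figure D2:**
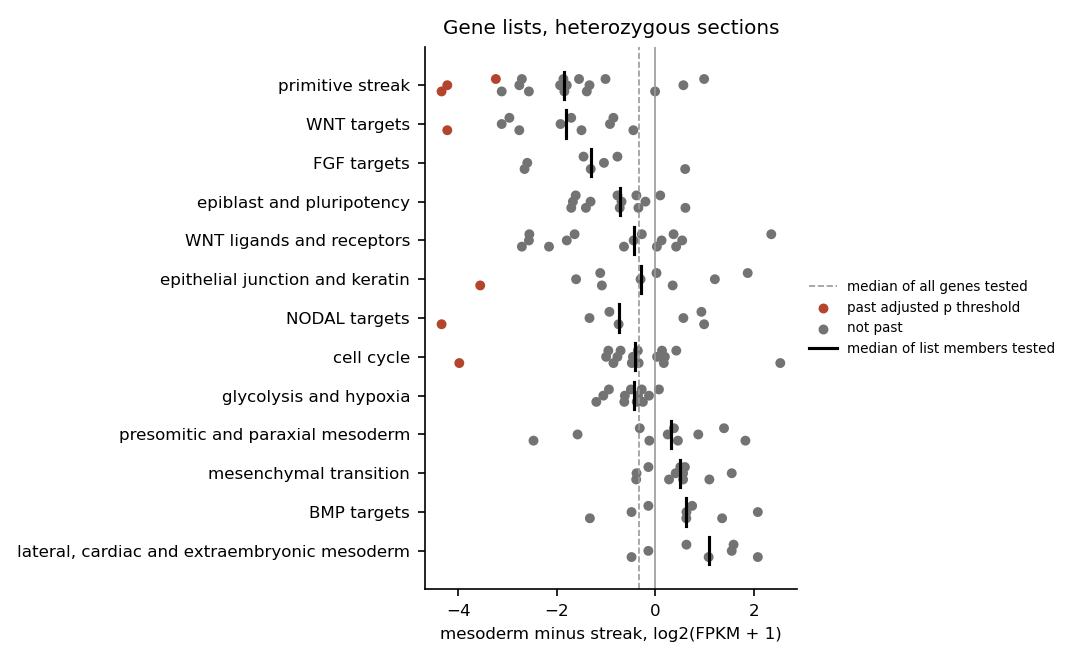
Mesoderm minus streak on the log2(FPKM + 1) scale for the members that passed the filter in 13 gene lists, with 1 point per gene, red where the adjusted p was under 0.05. Black bars are list medians, the dashed line is the median of all genes tested (-0.33) and the solid line is 0. The primitive streak and WNT target medians lie at -1.85 and -1.81, and that of lateral, cardiac and extraembryonic mesoderm at 1.08.

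The WNT genes are described from ligand to target. Wnt3, the ligand required to start the streak, was at 13.0, 14.2 and 4.57 FPKM in streak and 0.395, 0.495 and 1.05 in mesoderm. Wnt3a, a ligand of the established streak, was at 9.37, 11.0 and 3.88 in streak and 0.887, 0.556 and 0 in mesoderm. Wnt5b, a ligand mostly tied to non-canonical signalling, was at 11.9, 4.91 and 4.02 in streak and 0, 0.893 and 0 in mesoderm. In all 3 ligands the regions did not overlap. They were not past the threshold in the 6 sections alone (limma BH-adjusted p = 0.0988, 0.0864 and 0.132) and were past it with the pooled spread (0.0198, 0.0119 and 0.0277).

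Wnt5a, a further ligand, was at 1.92, 3.27 and 1.87 FPKM in streak and 1.98, 7.49 and 3.43 in mesoderm, with overlapping regions. Sfrp1, a secreted inhibitor that binds WNT ligands, was at 0.586, 0.653 and 0.119 in streak and 5.52, 15.7 and 2.61 in mesoderm. Each mesoderm section was above each streak section, and the difference of 2.36 ± 0.55 was not past the threshold (limma BH-adjusted p = 0.139, and 0.0793 with the pooled spread). Frzb, of the same inhibitor family, had its higher values in streak, at 23.5, 36.6 and 6.15 FPKM against 5.39, 10.9 and 1.89 in mesoderm. Its regions overlapped, and it was past the threshold only with the pooled spread (limma BH-adjusted p = 0.0244, and 0.165 without it). Over the 15 WNT ligands, receptors and inhibitors that passed the filter, 0 were called, 5 were higher in streak in 3 of 3 pairs, a share near the 27.2% of all genes, and 3 higher in mesoderm in 3 of 3, beside 6.00%.

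Of 15 WNT targets listed, 10 passed the filter and 1 (T) was called, beside 0.231% of all genes. Of the 10, 9 were higher in streak in 3 of 3 pairs, beside 27.2% of all genes, and 7 did not overlap with streak higher, beside 10.0%, with a median difference of -1.81. Cdx1, a caudal-type homeobox gene, was at 7.15, 15.1 and 9.12 FPKM in streak and 0.491, 0.368 and 0 in mesoderm. Sp5, a zinc finger factor, was at 29.5, 10.1 and 14.4 in streak and 1.40, 0.900 and 2.69 in mesoderm. Sp8, its relative, was at 8.45, 15.2 and 33.4 in streak and 0.882, 1.53 and 1.35 in mesoderm. The 3 genes showed no overlap between regions and were not called in the 6 sections (limma BH-adjusted p = 0.0565, 0.0676 and 0.0587). They were past the threshold with the pooled spread (0.00799, 0.0048 and 0.00399) and with the fragment filter (0.0296, 0.0383 and 0.0307). Lef1, which carries the signal to DNA, was at 19.9, 40.9 and 21.1 in streak and 12.7, 22.4 and 7.97 in mesoderm, and Axin2, a feedback inhibitor, at 3.13, 3.31 and 1.10 against 0.372, 2.80 and 0.228. These last 2 overlap between the regions and were past the threshold in neither fit.

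The promoters of T, Sp5 and Sp8 are shown as WNT targets that had higher values in streak and hold the motif described next. Other WNT targets with the same direction, Cdx1 among them, are not shown. The promoters shown therefore do not represent the list. Each sequence runs from 250 bases before to 50 bases after the gene start in RefSeq (GRCm38.p6, plus strand), and capitals mark the motif of the TCF/LEF factors searched here, CTTTGAT or CTTTGAA on either strand. The T window is chr17:8434173-8434472, the Sp5 window chr2:70474673-70474972 and the Sp8 window chr12:118846983-118847282.
T: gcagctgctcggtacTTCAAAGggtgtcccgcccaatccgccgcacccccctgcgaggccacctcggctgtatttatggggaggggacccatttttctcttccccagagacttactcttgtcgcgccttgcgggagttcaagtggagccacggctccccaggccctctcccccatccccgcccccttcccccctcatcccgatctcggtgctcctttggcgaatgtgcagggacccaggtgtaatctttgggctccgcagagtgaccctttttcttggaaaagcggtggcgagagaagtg
Sp5: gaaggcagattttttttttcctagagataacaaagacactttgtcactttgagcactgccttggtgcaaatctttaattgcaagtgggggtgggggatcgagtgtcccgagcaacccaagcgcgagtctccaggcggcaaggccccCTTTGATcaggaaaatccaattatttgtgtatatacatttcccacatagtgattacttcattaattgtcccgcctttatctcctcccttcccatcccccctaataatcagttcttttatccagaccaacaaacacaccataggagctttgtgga
Sp8: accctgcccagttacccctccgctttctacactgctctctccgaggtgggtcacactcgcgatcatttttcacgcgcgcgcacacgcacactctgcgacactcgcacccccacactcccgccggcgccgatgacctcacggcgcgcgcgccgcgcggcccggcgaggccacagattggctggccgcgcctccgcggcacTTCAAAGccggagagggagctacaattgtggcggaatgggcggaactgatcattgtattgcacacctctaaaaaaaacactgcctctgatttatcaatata
The motif starts 235 bases before the start of T, 104 before that of Sp5 and 51 before that of Sp8. Of the 15 WNT targets, 10 had an entry in the promoter table and 4 of them held the motif, the fourth being Tnfrsf19. The share over all 27025 genes in the table was 9.88% (2671 genes). Of the 12 named genes called higher in streak, 8 had an entry and 2 held it (T and Syngr2). A match describes letters in this window and is not a measured site.

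Several feedback targets of FGF signalling had the same order of regions. Dusp6, a phosphatase that dampens ERK, was at 18.4, 34.2 and 28.5 FPKM in streak and 3.94, 6.03 and 1.34 in mesoderm. Spry2, an inhibitor of receptor tyrosine kinase signalling, was at 124.8, 150 and 62.6 in streak and 10.3, 58.5 and 7.15 in mesoderm, where layer 9 came close to the lowest streak section. Neither was called in the 6 sections (limma BH-adjusted p = 0.0676 and 0.0587), and both were past the threshold with the pooled spread (0.00559 and 0.0148) and with the fragment filter (0.0359 and 0.0286). Of the 7 FGF targets that passed the filter, 0 were called and 5 did not overlap with streak higher, beside 10.0% of all genes. Not all followed: Etv4 was at 3.45, 5.22 and 0 FPKM in streak and 3.02, 0.400 and 0 in mesoderm. The highest difference on the list was 0.61, toward mesoderm.

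Among ligands and receptors, Fgf4 was at 11.2, 10.1 and 0.439 FPKM in streak and at most 0.804 in mesoderm, and Fgf8 at 4.65, 1.26 and 5.78 against 0.896, 1.67 and 1.09. Neither separated the regions. The receptor Fgfr2 was listed at 0 in the 3 streak sections and at 1.19, 5.12 and 5.42 FPKM in mesoderm (limma BH-adjusted p = 0.237, and 0.0468 with the pooled spread). Fgfr1, the main FGF receptor of the streak, was at 8.82, 9.94 and 1.22 in streak and 4.44, 6.97 and 5.31 in mesoderm.

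No NODAL or BMP pathway gene was called. Of 11 NODAL pathway genes and 5 BMP pathway genes that passed the filter, the median differences were -0.09 and -0.28. Nodal itself was at 2.20, 0 and 0 FPKM in streak and 0.200, 0 and 0.123 in mesoderm and did not pass the filter. Tdgf1, the co-receptor Cripto, was at 68.1, 112 and 16.8 in streak and 11.8, 28.1 and 19.6 in mesoderm, so layer 11 ran opposite to the others. Eomes, a T-box target of NODAL, was at 15.7, 17.5 and 2.73 in streak and 3.71, 6.26 and 1.10 in mesoderm and was higher in streak in every layer without separating the regions.

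Follistatin, the secreted antagonist of activin encoded by Fst (chromosome 13, 114452262 to 114458730), was at 107, 107 and 72.6 FPKM in streak and 2.13, 18.1 and 2.82 in mesoderm. As with T, layer 9 was the highest mesoderm section, still far below the streak. The difference was -3.96 ± 0.51 (limma BH-adjusted p = 0.0271). Of the 8 BMP targets that passed the filter, 0 were called and the median difference was 0.63. Bambi, a decoy receptor induced by BMP, was at 0.252, 0.241 and 0.205 FPKM in streak and 2.26, 1.70 and 2.58 in mesoderm, not past the threshold.

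Cdh1, which encodes E-cadherin of epithelial junctions (chromosome 8, 106603351 to 106670246), was at 17.7, 21.8 and 11.2 FPKM in streak and 0.982, 0.336 and 0.219 in mesoderm. The lowest streak section stood far above the highest mesoderm section. The difference was -3.55 ± 0.47 (limma BH-adjusted p = 0.0304), and the mesoderm values rest on about 8.73, 2.99 and 2.20 implied fragments. No other epithelial gene was called. Of 9 on the list that passed the filter, Cdh1 was the 1 past the threshold, beside 0.231% of all genes.

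Epcam, a surface protein of epithelia, was at 17.9, 22.1 and 4.04 FPKM in streak and 3.51, 11.3 and 2.90 in mesoderm. Krt18, a keratin, was at 1.03, 1.32 and 0 in streak and 10.8, 1.90 and 5.82 in mesoderm, without overlap. Krt8, its partner, was at 2.45, 4.90 and 12.7 against 11.6, 21.3 and 11.3, so layer 11 ran the other way and the regions overlapped. Neither keratin was past the threshold (limma BH-adjusted p = 0.279 and 0.389).

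Genes of the mesenchymal state had differences from -0.39 to 1.55. Of 11 that passed the filter, 0 were called, 5 were higher in mesoderm in 3 of 3 pairs, beside 6.00% of all genes tested, 3 did not overlap with mesoderm higher (1.88% of all genes), and the median difference was 0.51. Cdh2, the N-cadherin gene, was at 1.23, 2.28 and 2.78 FPKM in streak and 3.37, 3.67 and 3.39 in mesoderm. Sparc, a matrix protein, was at 3.72, 7.99 and 4.66 in streak and 9.90, 18.6 and 10.1 in mesoderm. Both separated the regions without passing the threshold (limma BH-adjusted p = 0.670 and 0.350).

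Snai1, the repressor of Cdh1 at the streak, was at 10.1, 8.18 and 1.74 FPKM in streak and 8.57, 24.9 and 2.95 in mesoderm, and its regions overlapped. Vim, an intermediate filament, was higher in the mesoderm section of each layer, at 1.87, 2.87 and 6.60 in streak and 2.41, 4.88 and 12.7 in mesoderm, and differed more between layers than between regions.

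The apelin system had its ligands in streak and its receptor in both regions. Apln (chromosome X, 48025146 to 48034853) was at 9.88, 18.1 and 11.3 FPKM in streak and 0.898, 0.868 and 0.315 in mesoderm, with no overlap. The difference was -3.03 ± 0.48 (limma BH-adjusted p = 0.0494). Apela, the other ligand, was at 11.7, 17.0 and 12.6 in streak and 1.03, 0.770 and 0.941 in mesoderm, and missed the threshold by little (limma BH-adjusted p = 0.0503). The receptor Aplnr was at 8.11, 17.0 and 2.06 in streak and 11.3, 18.2 and 5.90 in mesoderm, a difference of 0.57 ± 0.44 (limma BH-adjusted p = 0.635).

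Of 17 presomitic and paraxial mesoderm genes listed, 10 passed the filter and 0 were called. With a median of 0.32, 4 were higher in mesoderm and 3 higher in streak in 3 of 3 pairs, beside 6.00% and 27.2% of all genes. Mesp1, the factor of the earliest cardiac and cranial mesoderm, was at 14.7, 68.3 and 6.91 FPKM in streak and 19.2, 72.8 and 14.1 in mesoderm. It followed the layer more than the region. Tbx6, which specifies paraxial mesoderm, was at 8.71, 11.6 and 3.25 in streak and 2.99, 3.92 and 0 in mesoderm, and Hes7, a cyclic repressor of the segmentation clock, at 6.73, 10.1 and 5.70 against 0.945, 0.354 and 0.289. Both were higher in streak in every layer. Dll3, a NOTCH ligand of the paraxial mesoderm, was higher in mesoderm in every layer, at 5.47, 2.99 and 0.103 in streak and 7.2, 5.89 and 2.11 in mesoderm, and was not past the threshold (limma BH-adjusted p = 0.503). Hes7 was past the threshold only with the pooled spread (limma BH-adjusted p = 0.0175), and Tbx6 in neither fit (0.241, and 0.118 with the pooled spread).

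Of 20 lateral, cardiac and extraembryonic mesoderm genes listed, 7 passed the filter and 0 were called. Of the 7, 4 were higher in mesoderm in 3 of 3 pairs, beside 6.00% of all genes, and 3 did not overlap with mesoderm higher, beside 1.88%, with a median of 1.08. Gata6, a zinc finger factor of cardiac mesoderm and endoderm, was at 0.163, 0.716 and 0 FPKM in streak and 2.78, 2.28 and 3.41 in mesoderm (limma BH-adjusted p = 0.346, and 0.0486 with the pooled spread). Hand1, a factor of lateral and extraembryonic mesoderm, was listed at 0 in the 3 streak sections and at 1.42, 1.24 and 13.0 FPKM in mesoderm, where layer 11 was the highest. Twist1 was at 1.22, 0.278 and 0.175 in streak and 4.03, 1.61 and 5.42 in mesoderm. Of the 13 endothelial and blood genes listed, 0 passed the filter, and the receptor Kdr was at 0.298, 0.0339 and 0 in streak and 0.395, 1.79 and 1.21 in mesoderm.

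The NOTCH target Hes1 was even within each region, at 0.584, 0.779 and 0.782 FPKM in streak and 3.61, 4.95 and 4.22 in mesoderm. Its regions were well apart, while the difference of 1.61 ± 0.51 was past the threshold only with the pooled spread (limma BH-adjusted p = 0.263 in the 6 sections and 0.0218 pooled). Hes1 and Hes7, both repressors of the same family, thus had opposite orders of the regions in these 6 sections. The Hes1 streak values rest on about 3, 5 and 4.00 implied fragments. In homozygous streak of layers 5, 7, 9 and 11 Hes1 was at 6.73, 7.98, 7.98 and 5.73 FPKM. Homozygous mesoderm was at 8.68, 9.06, 7.96 and 6.94. The change of the difference between genotypes was -1.43 ± 0.41, not past the threshold (limma BH-adjusted p = 0.648).

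**Figure D3:**
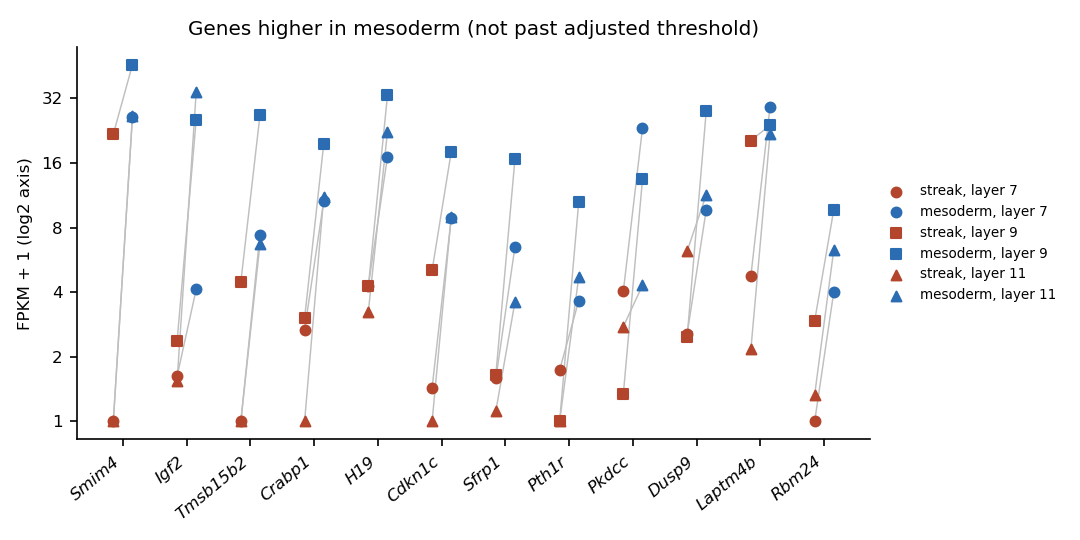
FPKM + 1 on a log2 axis for the 12 named genes with the largest differences toward mesoderm among those at a mean of 5 FPKM or more there, with points and lines as in the plot of genes called higher in streak. In each of the 12 genes the 3 mesoderm sections lie above the 3 streak sections, and none was past the adjusted threshold in the 6 sections.

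Among genes averaging 5 FPKM or more in mesoderm, with 1 direction in 3 of 3 pairs and an unadjusted p under 0.01, the largest differences toward mesoderm, none past the adjusted threshold, were in Smim4, Igf2, Tmsb15b2, Crabp1, H19, Cdkn1c, Sfrp1, Pth1r, Pkdcc, Dusp9, Laptm4b and Rbm24. Reads of Tmsb15b2 and of Cxx1c may be shared with near-identical copies, so both values are uncertain. Igf2, a fetal growth factor expressed from the paternal allele (chromosome 7, 142650766 to 142666816), was at 0.623, 1.36 and 0.539 FPKM in streak and 3.12, 24.5 and 33.3 in mesoderm. H19, the maternally expressed non-coding RNA beside it (142575558 to 142578120), was at 3.27, 3.27 and 2.25 in streak and 16.1, 32.0 and 21.4 in mesoderm. Cdkn1c, a maternally expressed inhibitor of the cell cycle on the same chromosome (143458350 to 143461050), was at 0.436, 4.06 and 0 in streak and 7.85, 17.0 and 7.96 in mesoderm.

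In these 3 imprinted genes each mesoderm section was above each streak section, as in all 12 genes named toward mesoderm. Those genes were chosen by the size and direction of their difference, so the separation follows largely from the choice. Imprinted genes were not examined as a list. The differences of Igf2, H19 and Cdkn1c were 3.09 ± 0.62, 2.58 ± 0.44 and 2.54 ± 0.50 (limma BH-adjusted p = 0.0973, 0.0587 and 0.0864). With the pooled spread Igf2 (0.0175) and Cdkn1c (0.0185) were past the threshold and H19 (0.0689) was not. With the fragment filter H19 (0.0307) was past it, and Igf2 (0.0546) and Cdkn1c (0.0559) were not.

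Of the cell cycle inhibitors, 1 was called. Cdkn1a, the p21 inhibitor downstream of p53 (chromosome 17, 29090979 to 29100722), was at 9.19, 29.3 and 24.9 FPKM in streak and 0, 1.05 and 0 in mesoderm. The regions did not overlap, and the difference was -3.98 ± 0.49 (limma BH-adjusted p = 0.0248). Cdkn1b, the p27 inhibitor, was at 8.95, 6.78 and 13.9 in streak and 2.94, 19.2 and 14.7 in mesoderm, with a difference of 0.04 ± 0.55. Of the 16 cell cycle genes, all passed the filter and Cdkn1a was the 1 called, beside 0.231% of all genes. Their median of -0.40 lay near that of all genes.

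Of the 6 retinoic acid genes that passed the filter, 0 were called. Crabp1, a retinoic acid binding protein (chromosome 9, 54764748 to 54773110), was at 1.67, 2.02 and 0 FPKM in streak and 9.64, 18.6 and 10.1 in mesoderm, while Crabp2 was at 6.14, 7.42 and 6.43 against 4.74, 2.75 and 0.320. Neither gene overlapped between the regions, and neither was past the threshold (limma BH-adjusted p = 0.0686 and 0.379). Crabp1 was past it with the pooled spread (0.0378) and with the fragment filter (0.0432).

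Of the HOX genes, 3 of 18 listed passed the filter and 0 were called in the 6 sections. Hoxb1, the first to be transcribed in the posterior embryo, was at 17.6, 21.5 and 14.6 FPKM in streak and 1.41, 5.89 and 7.51 in mesoderm, and Hoxb2 at 10.9, 18.8 and 14.6 against 1.07, 4.20 and 3.09. Both separated the regions, beside 10.0% of all genes with streak higher and no overlap, and the remaining tested HOX gene did not. Hoxb2 was past the threshold with the pooled spread (limma BH-adjusted p = 0.0148), Hoxb1 not (0.0717).

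The epiblast genes had their higher values in streak in part. Pou5f1, the pluripotency factor OCT4, was at 54.9, 58.3 and 33.3 FPKM in streak and 24.0, 13.3 and 8.21 in mesoderm. Dnmt3b, the de novo methyltransferase of the epiblast, was at 77.2, 70.6 and 30.3 in streak and 32.0, 21.4 and 7.28 in mesoderm. Both were past the threshold only with the pooled spread (limma BH-adjusted p = 0.0217 and 0.0294). Of the 13 epiblast genes that passed the filter, 0 were called in the 6 sections, and the median was -0.72. The glycolysis and hypoxia genes lay near all genes, with 0 of 12 called and a median of -0.43.

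The chromosome X genes among the 12 were Cxx1c, Tceal8, Bex4 and Apln. They are the 4 called of 391 chromosome X genes tested, beside 20 of all 8672 genes (0.231%). Tceal8 (136168984 to 136172342), a TCEAL family gene, was at 403, 568 and 201 FPKM in streak and 43.7, 65.9 and 33.3 in mesoderm, with a difference of -2.94 ± 0.28 (limma BH-adjusted p = 0.0048). Its neighbour Bex4 (136138996 to 136140443) was at 123, 264 and 191 in streak and 35.2, 34.3 and 15.4 in mesoderm. Cxx1c (53608032 to 53608432) was at 55.3, 107 and 20.5 in streak and 0, 1.46 and 0 in mesoderm. In all 3 the regions were clearly apart. The median difference of the chromosome X genes was -0.40, beside -0.33 over all genes.

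The remaining named genes were Slc24a5, a cation exchanger known from melanosomes, and Syngr2, a vesicle membrane protein. Slc24a5 was at 8.29, 11.0 and 25.5 FPKM in streak and 0, 0.189 and 2.25 in mesoderm. Syngr2 was at 19.6, 11.9 and 11.3 in streak and 0.635, 0.238 and 1.16 in mesoderm. Neither overlapped between the regions (limma BH-adjusted p = 0.0354 and 0.0494).

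The homozygous sections allow the same comparison in samples that played no part in choosing these genes. Their FPKM values and directions come from the homozygous sections alone. Their adjusted p-values come from the joint fit, whose filter and spread include the heterozygous sections that chose the genes. The calls there are therefore not an independent check. All 20 genes called in the heterozygous sections had a mean difference toward streak in the 4 homozygous pairs, as did 7443 of all 9146 genes tested. The streak section was the higher in 4 of 4 homozygous pairs for 17 of the 20, beside 2745 of all genes, and 7 of the 20 were called there, where 16 genes in all (0.175%) were called higher in streak and 4 (0.0437%) higher in mesoderm. Those 7 are among the 12 named genes and are Cxx1c, Mixl1, T, Cdkn1a, Fst, Apln and Tceal8. T was at 51.1, 63.0, 105 and 50.8 FPKM in the homozygous streak sections of layers 5, 7, 9 and 11 and at 8.49, 9.14, 5.90 and 5.18 in mesoderm, a difference of -3.03 (limma BH-adjusted p = 0.00398). Of the 12 genes named toward mesoderm, 5 were higher in mesoderm in 4 of 4 homozygous pairs, beside 2.12% of all genes, 9 had a mean difference in that direction, beside 1703 of all 9146 genes, and 0 were called.

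**Figure D4:**
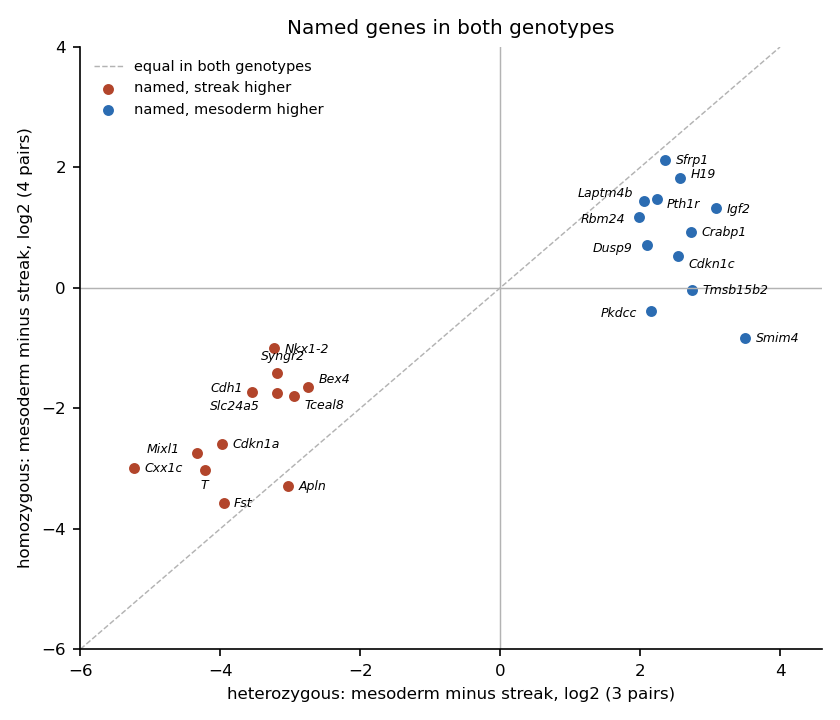
Mesoderm minus streak on the log2(FPKM + 1) scale for the 24 named genes, heterozygous (3 pairs) on the x axis and homozygous (4 pairs) on the y axis. The dashed line marks equal differences. All 12 genes called higher in streak lie below 0 in both genotypes, and 3 of the 12 named toward mesoderm (Smim4, Tmsb15b2 and Pkdcc) lie below 0 in the homozygous sections.

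The difference between the genotypes was itself tested, as homozygous minus heterozygous region difference over 14 sections. One predicted gene was past the threshold, 1 of 9146 (0.0109%), with 562 (6.14%) at an unadjusted p under 0.05. No gene described above was past it. Nkx1-2 had a smaller difference in the homozygous sections, where streak was at 0, 0.553, 2.82 and 2.32 FPKM (change of the difference 2.23 ± 0.65, limma BH-adjusted p = 0.648). Hes7 was at most 0.0799 FPKM in homozygous streak, and its change was 2.50 ± 0.57 (limma BH-adjusted p = 0.546). Hoxb2 was at 0, 0, 1.07 and 2.35 FPKM in homozygous streak (change 2.06 ± 0.46, limma BH-adjusted p = 0.482). These 3 genes had higher streak values in the heterozygous sections of layers 7, 9 and 11, and the threshold was not reached for any. Gabarapl1 went the other way, with a larger change of -2.84 ± 0.50 that was not past the threshold either (limma BH-adjusted p = 0.314). It was at 0, 0 and 0.153 FPKM in heterozygous streak and at 12.2, 6.01, 8.76 and 4.92 in homozygous streak. Not every gene of the streak list followed. Cdx1 did, with means of 10.5 and 2.42 FPKM in heterozygous and homozygous streak. Cdx2 was at 3.69, 3.14 and 6.98 in heterozygous streak and 0, 1.01, 8.54 and 8.49 in homozygous streak. Fgf8 was at 4.65, 1.26 and 5.78 against 25.9, 23.7, 37.6 and 13.1.

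Among the genes whose region difference was higher in the homozygous sections, none past the threshold, were also Cer1, a secreted NODAL and WNT antagonist of endoderm, and Lefty2, a NODAL antagonist of early mesoderm. Cer1 was at 4.94, 1.11 and 0.151 FPKM in heterozygous mesoderm and at 131, 38.9, 6.13 and 3.71 in homozygous mesoderm. Its streak values were at most 0.767 in either genotype. Lefty2 was at 45.0, 85.7 and 10.6 in heterozygous streak and 35.8, 34.1 and 4.19 in heterozygous mesoderm, and at 26.3, 69.7, 3.63 and 11.7 against 79.4, 113, 53.7 and 18.1 in homozygous sections. The order of the regions was thus opposite in the 2 genotypes for Lefty2, with a change of 2.53 ± 0.67 that was not past the threshold (limma BH-adjusted p = 0.648, and 0.691 for Cer1).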

How the data were processed

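The 6 heterozygous sections were compared within layers, and the 8 homozygous sections entered 1 joint fit. Of 30 deposited gene tables, 24 come from embryo sections and were read. The authors deposited FPKM with an interval per gene, in the column format of Cufflinks. Per the submitters' processing notes, CASAVA and TopHat2 2.0.11 were used with the genome mm10. The tool that made the values and the use of strand are not given in the sources used here. Identifiers listed more than once (60) were summed and values below 1e-06 FPKM set to 0. Fragments were implied as (2 FPKM / (upper limit - FPKM)) squared. They were whole within 0.02 for 29.7% to 40.2% of genes with at most 100 in the 6 sections, so they are approximate and no model of counts was run.

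Values were tested as log2(FPKM + 1), a pseudocount of 1, keeping genes whose mean reached 1 FPKM, with limma 3.58.1 in R 4.3.3 (mean-dependent prior, two-sided, Benjamini-Hochberg (BH) adjustment, threshold 0.05). Layer was a block because the comparison is within layers. Deviations of the streak and mesoderm sections of a layer correlated at 0.10, 0.08 and 0.17 in layers 7, 9 and 11. The named genes are the 12 largest differences each way that passed, with the higher region at a mean of 5 FPKM or more and 1 direction in 3 of 3 pairs, filled up at an unadjusted p under 0.01 and then given as not past, and 5 each way for the difference between genotypes. Not every gene chosen for the difference between genotypes is described. Members of 33 gene lists, Evx1 and Evx1as may also be named. Predicted genes and pseudogenes were left unnamed except in the closing section. The members and lists were chosen with earlier results of these data known. Promoters are from RefSeq (GRCm38.p6). The alternatives tried were the pseudocount, filters, scaling, prior, block, pooled spread and leaving out layers. Foxc2, Foxf1, Spink3 and Rhou of the lists were not analysed here.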

Additional observations from a re-analysis of the deposited data

Results flagged for a closer look

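The predicted gene Gm8069 (chromosome 5, 54651968 to 54652121) was the 1 gene whose region difference changed between the genotypes. It was listed at 0 in all 6 heterozygous sections and in the 4 homozygous mesoderm sections, and at 98.2, 85.1, 309 and 59.2 FPKM in the homozygous streak sections of layers 5, 7, 9 and 11. The fitted change of the difference was -6.81 (limma BH-adjusted p = 0.00118), a value that depends on the pseudocount because 3 of the 4 groups are at 0. Outside the compared groups it was at 71.6 FPKM in the heterozygous anterior epiblast and at 58.1 FPKM in a further heterozygous section of layer 7, so it was not at 0 in every heterozygous section. It was chosen after its values were seen.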

How the results depend on the processing

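The count of 20 genes higher in streak became 5 with a pseudocount of 0.1, 5 with a mean of at least 5 FPKM, 5 after median-ratio scaling, 5 after removing Yam1 and mitochondrial genes and rescaling, 2 with no filter on low values, 0 with a constant prior and 0 to 0 when a layer was left out. It became 261 with the spread pooled with the homozygous pairs and 47 with a mean of at least 10 implied fragments, an alternative chosen after seeing the data. Without the replicate block it was 5, the pairing correlations not all being above 0.1. The count higher in mesoderm was 0 except for 20 with the pooled spread, 1 after removing Yam1 and mitochondrial genes and 2 with the fragment filter. For the difference between genotypes, the count higher in homozygous sections was 0 and became 1 with at least 5 FPKM, 1 after scaling and 1 with layers 7, 9 and 11 only, and ranged from 0 to 1 when a layer was left out. The count lower there was 1, became 0 with no filter and 0 with the fragment filter, ranged from 0 to 2 when a layer was left out and was 1 without the replicate block. The cause of these changes was not tested. Of the values of single genes under an alternative, 2522 kept their side of the threshold, 99 were no longer past it and 42 were newly past it. Small differences did not all keep their direction. Over the alternatives Cdkn1b ranged from -0.63 to 0.73 and Cyp26a1 from -0.52 to 0.84. Low genes rest on few implied fragments, which limits their differences.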

Other observations

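One heterozygous section of layer 7 carries a mesoderm title and a streak cell type label, and was left out above. It was at 8.34 FPKM for T, 1.79 for Mixl1, 1.88 for Cdh1 and 1.95 for Fst. It was also at 2.50 for Igf2, 9.66 for H19, 9.47 for Crabp1 and 6.32 for Sfrp1. Igf2, H19 and Crabp1 were thus above all 3 streak sections and below all 3 mesoderm sections used above, while Sfrp1 lay within the mesoderm range. Further genes with higher values in mesoderm were also below all 3 mesoderm sections. They were at 0.245 FPKM for Cdkn1c, 0.653 for Hes1, 0.374 for Fgfr2, 0.837 for Gata6 and 0 for Hand1. Which region the section holds was not settled. For Cer1 it was at 20.8 FPKM and for Lefty2 at 39.8. The heterozygous anterior epiblast section was at 3.62 FPKM for T, 1.74 for Mixl1, 9.93 for Cdh1, 49.1 for Tceal8 and 88.6 for Bex4, and at 0 for Evx1, Hes7 and Hoxb2.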
